A study of Mus musculus with 4 samples.

Results

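The replication-dependent histone genes encode the bulk of the linker histone H1 and of the core histones H2A, H2B, H3 and H4. They were taken as all genes with a probe set of their own, meaning a probe set that the platform annotation assigns to a single symbol, whose symbol begins with Hist1, Hist2, Hist3 or Hist4 or is the newer RefSeq name of such a symbol, such as H2ac10 for Hist1h2af. This rule found 30 genes on 32 probe sets, out of 22180 genes on 23521 probe sets with a single symbol. The 30 genes comprised 5 of class H1, 8 of H2A, 9 of H2B and 8 of H4. By older symbol, 22 belonged to Hist1, 5 to Hist2, 2 to Hist3 and 1 to Hist4. RefSeq calls 2 of them, H2af-ps2 and H2bu1-ps, transcribed pseudogenes. The RefSeq table holds 71 genes with such names, and 0 H3 genes had a probe set of their own. Those are read by probe sets that list several near-identical copies.

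A nucleosome is DNA wound around a core of H2A, H2B, H3 and H4, and H1 binds the linker DNA between cores. Cells make most of this protein while they copy DNA, from many small genes without introns that lie in clusters. Their transcripts end in a stem-loop instead of a poly(A) tail, which the stem-loop binding protein Slbp recognises, and they decay quickly when DNA synthesis stops. The coactivator Npat and the protein encoded by Casp8ap2, known as FLASH, work at these genes in a nuclear body that forms on the clusters. Bone marrow-derived macrophages divide in culture under the growth factor CSF1, so histone transcripts are ordinarily present in such cells.

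The arrays addressed how loss of Hilpda, a lipid droplet protein that inhibits triglyceride breakdown, affects transcripts of macrophages loaded with fatty acids. Wild type stands for Hilpda flox/flox mice and knockout for their HilpdaΔMΦ littermates, 8 to 12 weeks old. The sources used here do not name the Cre line behind the deletion. Marrow cells of both genotypes were differentiated for 7 days with 15% L929 conditioned medium, a source of CSF1, and all 4 groups then received 600 µM of mixed fatty acid, 1 part palmitate to 2 parts oleate, bound to albumin, for 12 h or 24 h. RNA of 3 samples was pooled on each Affymetrix array, with 1 array per group, so no group had replicates, and a difference between any pair of arrays could not be tested. All groups had fatty acids, so a difference between 12 h and 24 h holds both longer loading and longer culture.

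The values are log2 levels per probe set, and a level is not comparable between genes because probes differ in brightness. The 4 arrays correlated at r = 0.984 to 0.988 over 41345 probe sets. Hilpda itself read lower in the knockout arrays, by 0.51 at 12 h (5.93 against 5.41) and by 0.20 at 24 h (5.47 against 5.27). All 8 macrophage markers lay above the 40th percentile of level (a log2 value of 2.44), with summed levels of 85.4 to 88.0 on the 4 arrays, and 0 of 8 neutrophil markers did. The summed level of the 8 stromal cell markers, of which 6 passed that percentile, was 38.2 at 12 h and 41.1 at 24 h in wild type, and 35.2 and 37.2 in knockout. The summed stromal level was thus highest on the array of wild type at 24 h, though Thy1, Lum and Pdgfrb were highest in wild type at 12 h. The summed macrophage level was also highest in wild type at 24 h, at 88.0, against 85.6 in wild type at 12 h and 85.4 and 85.7 in knockout. The part of either marker group in the histone values was not tested.

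The bases just before the start site show how these genes are built and which letters the members of a class share. The stretches printed here are the 120 bases upstream of the start, from RefSeq promoters on GRCm38.p6, written 5′ to 3′ on the strand of the gene. They belong to the 5 genes that stood past 1.5-fold between the genotypes at either time and to the 3 H1 genes that stood past 1.5-fold between the times. Capitals mark 3 exact words on either strand, the TATA box word TATAAA (or TTTATA), the CCAAT box word CCAAT (or ATTGG) and the octamer ATTTGCAT (or ATGCAAAT), which is known from H2B promoters.
H2aw, chr11:58954565-58954684, + strand: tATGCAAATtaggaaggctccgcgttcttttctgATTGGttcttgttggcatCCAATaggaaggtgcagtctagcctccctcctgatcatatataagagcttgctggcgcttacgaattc
H2bc9, chr13:23543445-23543564, - strand: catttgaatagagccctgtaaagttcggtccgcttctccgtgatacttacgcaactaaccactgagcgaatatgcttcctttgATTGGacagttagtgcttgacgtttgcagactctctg
H2bc18, chr3:96269580-96269699, + strand: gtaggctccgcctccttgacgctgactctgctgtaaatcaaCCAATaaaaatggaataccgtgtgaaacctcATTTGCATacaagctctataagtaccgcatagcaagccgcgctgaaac
H2bc3, chr13:23746614-23746733, + strand: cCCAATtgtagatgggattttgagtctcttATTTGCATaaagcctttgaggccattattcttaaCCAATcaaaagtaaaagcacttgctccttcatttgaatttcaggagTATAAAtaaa
H4c12, chr13:21750554-21750673, - strand: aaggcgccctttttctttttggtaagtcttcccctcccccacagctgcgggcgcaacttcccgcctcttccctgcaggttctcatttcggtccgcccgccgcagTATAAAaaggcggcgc
H1f1, chr13:23763548-23763667, + strand: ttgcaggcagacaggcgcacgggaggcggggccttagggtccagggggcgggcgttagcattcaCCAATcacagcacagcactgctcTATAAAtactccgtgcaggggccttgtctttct
H1f2, chr13:23738687-23738806, + strand: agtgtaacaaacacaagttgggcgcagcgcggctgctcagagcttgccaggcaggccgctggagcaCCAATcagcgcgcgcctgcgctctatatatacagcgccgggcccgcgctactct
H1f5, chr13:21780626-21780745, - strand: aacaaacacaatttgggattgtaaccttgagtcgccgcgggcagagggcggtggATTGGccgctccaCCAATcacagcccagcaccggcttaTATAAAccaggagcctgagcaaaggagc

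Of the 30 genes, 26 had a promoter in that table. Over these 120 bases, 20 of 26 histone promoters (76.9%) held CCAAT, against 21.3% of all 32851 promoters in the table. The word was present in 5 of 5 H1 promoters, 7 of 7 of H2A and 7 of 7 of H2B, but in 1 of 7 of H4. TATAAA was found in 9 of 26 (34.6%), against 6.34% of all promoters. The octamer was found in 5 of 26 (19.2%), against 0.791% of all, namely in H2bc3, H2bc12, H2bc14, H2bc18 and H2aw, that is in 4 of 7 H2B promoters and 1 of 7 of H2A. A match is a description of letters and not a binding site.

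Levels of the histone genes ran from background to moderately bright. Probe signal was brightest for H2ac10 and H4c12, with mean log2 levels of 8.65 and 8.41, and dimmest for H2bc1 at 1.37 and H2ac12 at 1.49. Of the 30 genes, 20 had a mean level over the 4 arrays above the 40th percentile of all genes, and 13 were above the 60th percentile (4.20). The olfactory, vomeronasal and trace amine receptor genes, mostly silent outside sensory tissue, serve as a guide to background signal. Over 1409 of them the median level was 1.77, and 97.5% lay at or under 2.94. By that guide 15 of the 30 histone genes read no higher than receptor genes do, among them the testis genes H1f6, H2ac1 and H2bc1.

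**Figure D1:**
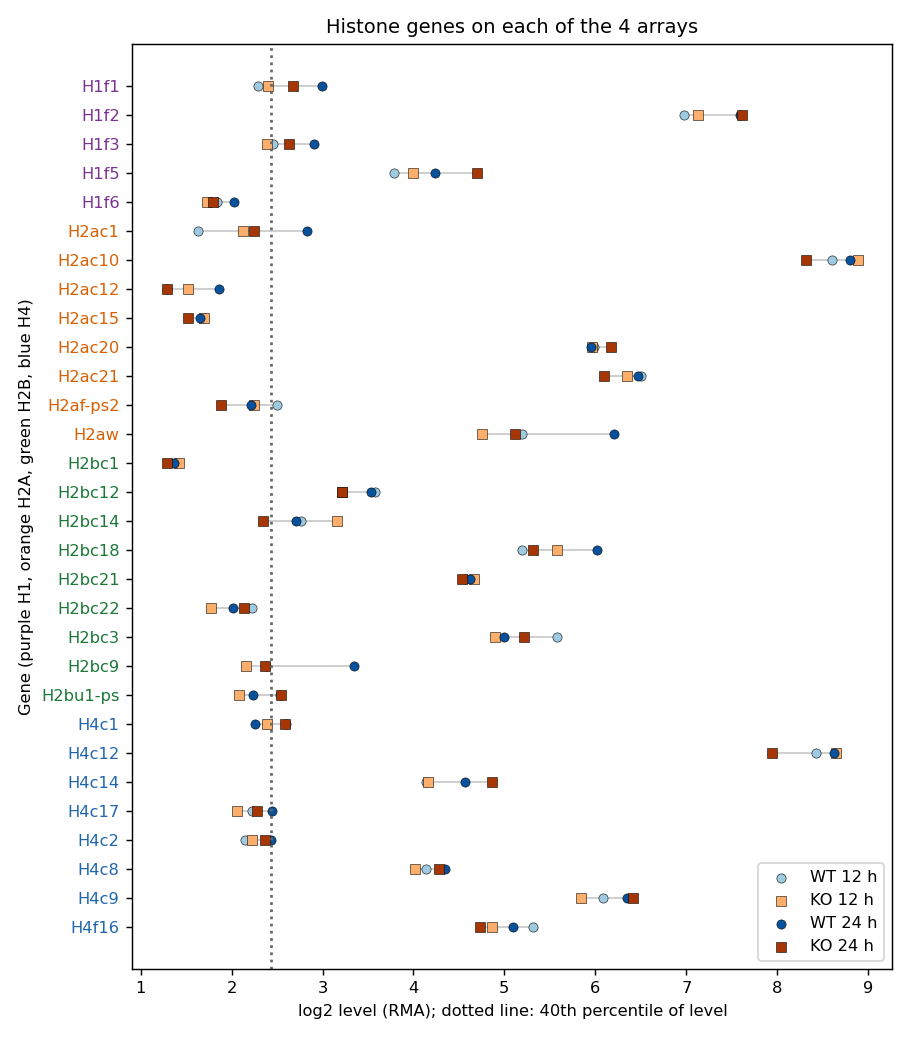
Log2 RMA level (x axis) of the 30 histone genes (y axis, coloured by class) on each of the 4 arrays, circles for wild type and squares for knockout, light for 12 h and dark for 24 h. The dotted line is the 40th percentile of level, and 10 genes have a mean level to its left. The wild-type array at 24 h stands apart on the right for H2aw, H2bc9, H2bc18 and H2ac1, and the knockout array at 24 h stands on the left for H4c12 and H2ac10.

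At 24 h, histone transcripts were more often lower than higher in knockout cells. Of the 30 genes, 21 read lower in knockout (49% of all genes did), and the median difference, knockout minus wild type, was -0.20 on the log2 scale against 0.01 over all genes. H2aw, H2bc9, H2bc18 and H4c12 were lower by at least 1.5-fold, 4 of 30 against a background of 2.81% of all genes, and none was higher by as much, against 2.58%. Knockout at 24 h was the lowest array for 9 of the 30 genes (23.6% of all genes) and wild type at 24 h the highest for 11 (27.9%). For scale, the central 95% of receptor genes ran from -0.58 to 0.64, so the 1.5-fold rule is close to the limits of background genes. Lower transcript in a culture can mean fewer cells in S phase or less histone transcript per cell, and these cannot be told apart here. Over the 13 brighter genes, those above the 60th percentile, the median was -0.094, against 0.02 over all genes at that level. Of the 13, 3 were lower by 1.5-fold or more, against 2.19% of those genes. By level, 8 of these 13 read lower in knockout (46.3% of all genes at that level). Between the 40th and 60th percentile 5 of 7 did (54.9%), and under the 40th percentile 8 of 10 (49%).

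At 12 h, fewer histone genes with a probe set of their own stood past 1.5-fold between the genotypes, and their signs were mixed. Of the 30 genes, 17 read lower in knockout (50.2% of all genes), and the median difference was -0.04, with that of all genes close to 0. H2bc3 alone was lower by 1.5-fold or more, 1 of 30 against 1.41% of all genes, and 0 of 30 were higher by as much, against 1.42%. At a rule of 1.3-fold, 8 of 30 passed at 12 h, 5 of them lower, against 10.8% of all genes, and 8 of 30 at 24 h, 7 of them lower, against 16.3%. No histone gene passed 1.5-fold at both times with the same sign, where 0.153% of all genes were lower and 0.108% higher. The sign was below 0 at both times for 11 genes (25.4% of all genes), above 0 at both for 3 (26.1%), and opposite for 16 (48.3%). The 2 genotype differences share no array, and across the 30 genes, as a description, they had a Pearson correlation of -0.21, against 0.06 over all genes. The SD of the differences over the histone genes was 0.288 at 12 h and 0.383 at 24 h, against 0.239 and 0.291 over all genes.

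**Figure D2:**
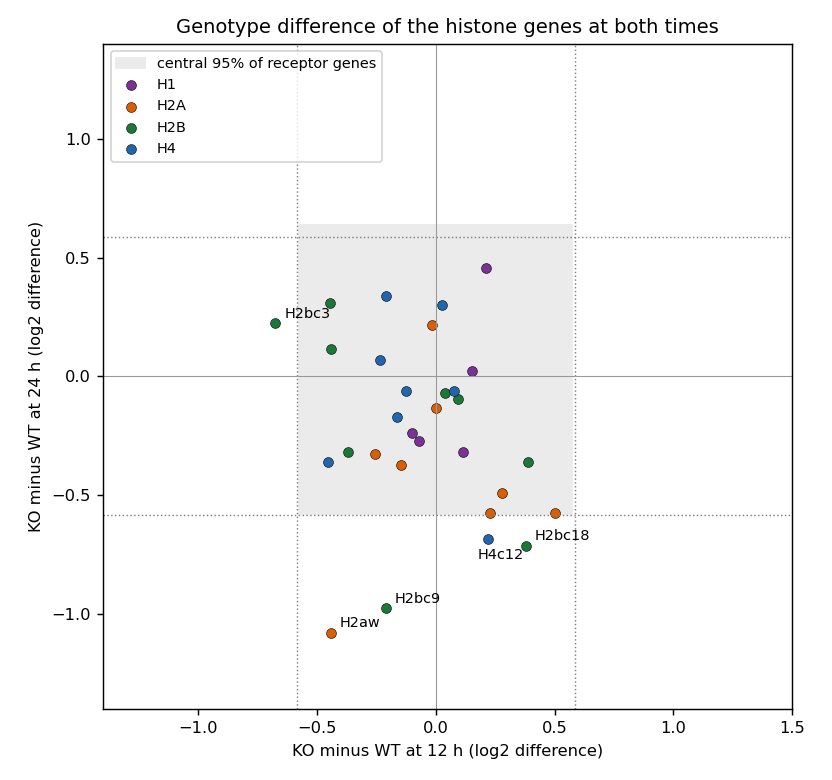
Log2 difference of knockout minus wild type at 12 h (x axis) against that at 24 h (y axis), 1 point per histone gene, coloured by class. The shaded box is the central 95% of 1409 receptor genes and the dotted lines mark 1.5-fold; H2aw, H2bc9, H2bc18 and H4c12 lie under the box and H2bc3 to its left.

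Between 12 h and 24 h, more histone genes with a probe set of their own read higher than lower in each genotype. All 5 H1 genes and 6 of 8 H4 genes were higher in each. Probe sets shared by several histone genes did not lean this way. Of 35 such sets, 15 read higher at 24 h in wild type and 18 in knockout, with medians of -0.02 and 0.02. In wild type, 18 of 30 genes read higher at 24 h (50% of all genes), with a median of 0.20 against 0 over all genes. H1f1, H1f2, H2ac1, H2aw, H2bc9 and H2bc18 were higher by 1.5-fold or more, 6 of 30 against 3.58% of all genes, and 0 of 30 were lower by as much, against 3.09%. H1f2 falls short of 1.5-fold when each array is centred on its median, at 0.58.

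In knockout, 19 of 30 genes read higher at 24 h (51.8% of all genes), with a median of 0.17 against 0.01. H1f5 and H4c14 were higher by 1.5-fold or more (2.61% of all genes) and H2bc14 and H4c12 lower (2.48%). The 2 time differences share no array. No histone gene was past 1.5-fold in the same direction in both genotypes, where 0.816% of all genes were higher and 0.712% lower. The time difference was above 0 in both genotypes for 13 genes (28.6% of all genes) and below 0 in both for 6 (26.7%). Over all 4 differences, 11 of the 30 genes stood past 1.5-fold at least once, against 13.8% of all genes, and 7 of these 11 have a mean level above 2.94. Past 2-fold stood only H2aw between the genotypes at 24 h (0.546% of all genes) and H2aw and H2ac1, the latter at receptor-gene level, between the times in wild type (1.32%), with 0 of 30 between the genotypes at 12 h (0.216%) or between the times in knockout (0.744%). Each time difference uses arrays that a genotype difference also uses, so a high or low value on 1 array enters both.

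**Figure D3:**
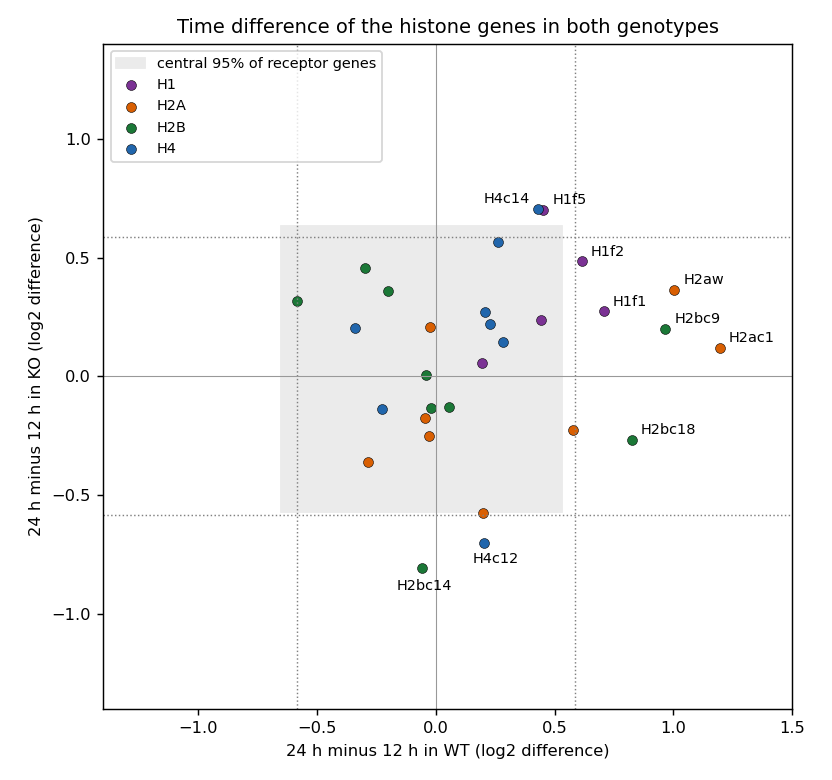
Log2 difference of 24 h minus 12 h in wild type (x axis) against that in knockout (y axis), 1 point per histone gene, coloured by class, with the central 95% of receptor genes shaded and 1.5-fold dotted. All 5 H1 genes lie above and to the right of 0, while H2ac1, H2aw, H2bc9 and H2bc18 lie far to the right with knockout values between -0.27 and 0.37.

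The linker histones were the only class in which every gene with its own probe set read higher at 24 h than at 12 h in both genotypes. The 5 H1 genes had a median time difference of 0.45 in wild type and 0.28 in knockout, and all 5 stayed above 0 when the arrays were centred, quantile-normalized or corrected by a loess on level. H1f2, which encodes H1.2 and is the brightest of them, read 6.97 and 7.12 in wild type and knockout at 12 h and 7.59 and 7.61 at 24 h. Its 2 arrays at 24 h were both higher than its 2 at 12 h, by 0.62 in wild type and 0.49 in knockout, and the genotypes differed by 0.15 and 0.02. H1f5 read 3.78 and 3.99 at 12 h and 4.24 and 4.70 at 24 h. Here too both late arrays were the higher, and knockout stood above wild type at each time, by 0.21 and 0.46. H1f1 read 2.29 and 2.40 at 12 h and 2.99 and 2.68 at 24 h, and H1f3 read 2.46 and 2.39, then 2.90 and 2.63. Both are near the level of receptor genes, as is H1f6, the testis H1, with 1.74 to 2.03 on the 4 arrays. H1f4 was read only by a probe set shared with H2bc4, H2bc6 and H2bc8, so its signal cannot be assigned to H1 alone. That set had a time difference of 0.51 in wild type and of -0.32 in knockout.

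The H2A genes had the lowest median of the 4 classes between the genotypes at 24 h. Of 8 H2A genes, 7 read lower in knockout at 24 h, with a median of -0.43, and this count held under each of the 3 other scalings. At 12 h their median was -0.01, with a sign that turned under quantile normalization and under the loess. H2aw (Hist3h2a), from the small Hist3 group, read 5.20 and 4.75 at 12 h (wild type, then knockout) and 6.20 and 5.12 at 24 h. Wild type at 24 h stood above the other 3 arrays by 1.00 or more, which makes knockout 2.11-fold lower at 24 h and wild type 2.01-fold higher at 24 h than at 12 h. H2ac10 (Hist1h2af), the brightest histone gene with its own probe set, read 8.61 and 8.89 at 12 h and 8.80 and 8.31 at 24 h. Its lowest array was knockout at 24 h, lower by 0.49 than wild type and by 0.57 than knockout at 12 h.

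The remaining H2A genes divide by level. H2ac1, a testis gene, read 1.63 and 2.13 at 12 h and 2.82 and 2.25 at 24 h, and H2ac12 read 1.29 and 1.52, then 1.87 and 1.29. These are values at receptor-gene level on all 4 arrays. The time difference of H2ac1 in wild type, 1.20, stood above the central range of receptor genes, which ended at 0.53. The highest receptor gene had a value of 1.38 for that difference. Whether the H2ac1 value exceeds background signal was not tested. H2ac20 and H2ac21, both of the Hist2 group, were steady by comparison. H2ac20 lay between 5.96 and 6.17 on all arrays, and H2ac21 read 6.50 and 6.35 at 12 h and 6.47 and 6.10 at 24 h. The other probe set of H2ac21 read 2.78 to 2.90, at receptor-gene level. Its genotype difference at 24 h was -0.02, against -0.37 for the probe set used. H2ac15 lay between 1.52 and 1.70, and the pseudogene H2af-ps2 read 2.50 and 2.24, then 2.21 and 1.89.

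The H2B genes differed widely between the genotypes and in no common direction. Their 9 differences between the genotypes ran from -0.68 to 0.39 at 12 h and from -0.98 to 0.31 at 24 h. H2bc18 (Hist2h2bb) read 5.19 and 5.57 at 12 h (wild type, then knockout) and 6.02 and 5.31 at 24 h. Knockout was thus above wild type by 0.38 at 12 h and below it by 0.71 at 24 h, a 1.64-fold lower value. H2bc9 (Hist1h2bh) read 2.37 and 2.16 at 12 h and 3.34 and 2.36 at 24 h. Only wild type at 24 h stood above receptor-gene level, and the 1.97-fold lower value in knockout at 24 h rests on it. H2bc3 (Hist1h2bb) read 5.58 and 4.90 at 12 h and 4.99 and 5.22 at 24 h. Wild type at 12 h was its highest array, and knockout was 1.60-fold lower there and above wild type by 0.22 at 24 h.

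Among the other H2B genes, H2bc12 read lower in knockout at both times. It read 3.58 and 3.21 at 12 h (wild type, then knockout) and 3.53 and 3.22 at 24 h. Both wild-type arrays were above both knockout arrays, by 0.37 and 0.32. H2bc21 (Hist2h2be), known for a role in olfactory neurons, lay between 4.53 and 4.66 on all 4 arrays. H2bc14 read 2.77 and 3.16 at 12 h and 2.71 and 2.35 at 24 h, which makes knockout lower at 24 h than at 12 h by 0.81, at levels near those of receptor genes. H2bc22, H2bu1-ps and the testis gene H2bc1 had levels of 1.78 to 2.22, 2.09 to 2.54 and 1.29 to 1.43.

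The H4 genes encode the same or nearly the same protein, and the class had no common direction between the genotypes. Its median difference was -0.14 at 12 h and -0.06 at 24 h, and 6 of 8 genes read higher at 24 h than at 12 h in each genotype. H4c12 (Hist1h4k) read 8.43 and 8.65 at 12 h (wild type, then knockout) and 8.63 and 7.94 at 24 h. Knockout at 24 h was its lowest array, 1.61-fold under wild type at that time and 1.63-fold under knockout at 12 h. H4c14 (Hist2h4) read 4.14 and 4.16 at 12 h and 4.57 and 4.87 at 24 h, and H4c9 read 6.08 and 5.85, then 6.34 and 6.41. Both were highest in knockout at 24 h, where H4c12 was lowest, so the H4 genes did not read alike on this array.

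H4f16 (Hist4h4), which lies apart from the clusters, read 5.32 and 4.87 at 12 h and 5.09 and 4.73 at 24 h. Both wild-type arrays were above both knockout arrays, by 0.45 and 0.36, and the dimmer probe set of the gene, at 2.88 and 2.57 and then 2.95 and 2.41, also read lower in knockout at both times, near receptor-gene level. H4c8 lay between 4.01 and 4.35. H4c1, H4c2 and H4c17 had levels of 2.25 to 2.59, 2.15 to 2.43 and 2.06 to 2.45, all at receptor-gene level.

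Near-identical copies share signal, so much of the histone output of the cells is read by probe sets that list several genes. There were 38 such probe sets with only histone genes, each listing 2 to 13, and 6 of them formed 3 pairs with identical values, leaving 35. They list 55 histone genes, 39 of them without a probe set of their own and 12 of them H3 genes. They also list 16 of the 30 genes above, so a probe set with a single symbol does not guarantee that no signal of a sister copy was read. Of the 30 genes, 0 had values within 0.05 of another histone probe set on all 4 arrays. The closest were H4c1 and a probe set of 4 H3 genes, with a largest gap of 0.0964.

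The shared probe sets read lower in knockout more often than higher at both times. Of 35, 24 read lower at 24 h (49% of all genes), with a median of -0.17, and 2 were lower by 1.5-fold or more (2.81% of all genes) and 0 higher (2.58%). At 12 h 24 of 35 also read lower (50.2% of all genes), with a median of -0.08, and here 6 were lower by 1.5-fold or more (1.41%) and 1 higher (1.42%). More shared probe sets thus stood past 1.5-fold at 12 h than at 24 h, the reverse of the single genes, and 5 of the 6 lower ones were under the 60th percentile of level. At 24 h the classes differed. The H2A sets had a median of -0.41 with 8 of 9 below 0, and the 12 probe sets of H3 had one of -0.17 with 10 of 12 below 0. The H2B sets had a median of 0.13 with 5 of 8 above 0, and the H4 sets had one of 0.08 with 3 of 5 above 0. The set of H1f4, H2bc4, H2bc6 and H2bc8, which mixes classes, had a difference of -0.77 at 24 h and of 0.07 at 12 h. At 12 h the medians were -0.08 for H2A, -0.12 for H3, -0.04 for H2B and -0.20 for H4. The probe sets are not independent, since the same copies are listed in several.

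The bright probe sets, chosen after their values were seen as those with a mean log2 level of at least 7, leaned to lower values in knockout at 24 h. There were 11, H2ac10, H4c12, H1f2 and 8 shared ones. At 24 h 9 of 11 read lower in knockout (48% of the 4150 genes at this level), with a median of -0.28 against 0.01, and knockout at 24 h was the lowest array in 8 of 11 (23.8% of those genes). At 12 h 6 read lower and 5 higher, with a median of -0.02.

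Among the lower sets at 24 h, the differences ran from -0.69, for H4c12, to -0.21. A set of 10 H2A genes read 8.55 and 8.53 at 12 h and 8.53 and 7.93 at 24 h, and was the single shared set of this level past 1.5-fold between the genotypes, at -0.60. The set of H2ac18, H2ac19 and H2ac20 read 10.87 and 10.78 at 12 h (wild type, then knockout) and 10.96 and 10.68 at 24 h. A set of 12 H2B genes read 9.65 and 9.61, then 9.76 and 9.31. A set of 8 H3 genes read 7.85 and 7.81, then 7.79 and 7.58. In each the knockout array at 24 h was the lowest. The exceptions at 24 h were the set of H2bc4, H2bc6 and H2bc8, with 9.59 and 9.79, then 9.77 and 9.88, and H1f2. Their knockout arrays were not below the wild-type arrays at either time.

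**Figure D4:**
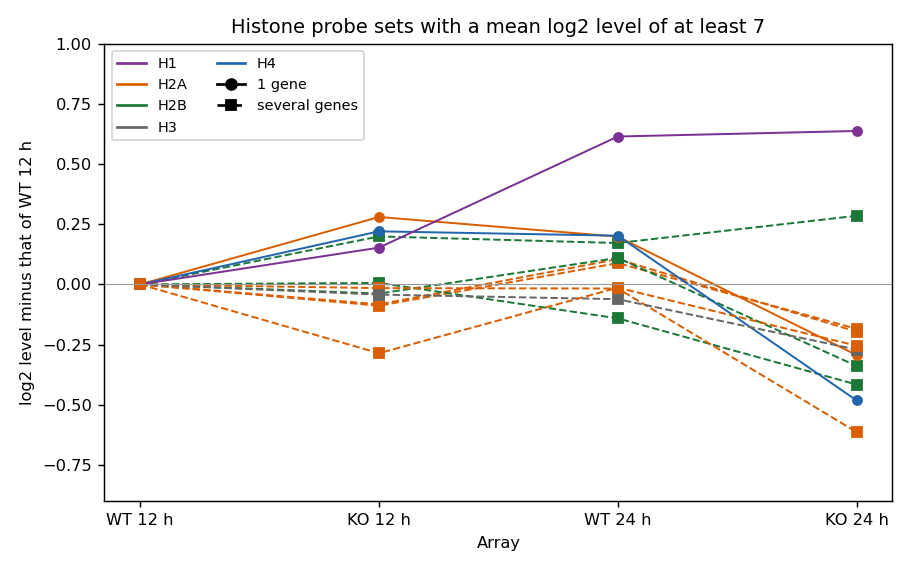
Log2 level of the 11 histone probe sets with a mean level of at least 7, each minus its own value in wild type at 12 h (y axis), on the 4 arrays (x axis); lines only join the values of a probe set, solid with circles for 1 gene and dashed with squares for several genes. Most lines are lowest in knockout at 24 h, while H1f2 (purple) and the set of H2bc4, H2bc6 and H2bc8 (upper green) are not.

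A test over the 4 arrays was possible only with both factors in 1 fit, limma with genotype and time as added terms and 1 residual degree of freedom. Its residual measures how far the genotype contrast differs from 12 h to 24 h. The eBayes step of limma then pulls the error of each gene towards a value drawn from all genes. No spread between replicates enters either. With Benjamini-Hochberg adjustment over 22180 genes, 0 genes passed an adjusted p of 0.05 for genotype and 0 for time. At an unadjusted p under 0.05, 1231 genes (5.55%) passed for genotype, 4 of the 30 histone genes among them, and 2117 (9.54%) for time, 9 of the 30 among them. For genotype the 4 were H2aw, H4f16, H2bc12 and H2bc9, all lower in knockout. H2aw had a mean difference of -0.76 with an SE of 0.191 and an adjusted p of 0.866 in limma.

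For time, 8 of the 9 were higher at 24 h, H1f1, H1f2, H1f3, H1f5, H2aw, H2bc9, H4c9 and H4c14, and H2af-ps2 was lower. H1f2 had the lowest adjusted p in limma, 0.343, with a mean difference of 0.55 and an SE of 0.123. With a variance trend in limma's eBayes, 235 genes passed the adjusted threshold for time and none of the 30 histone genes was among them, the lowest adjusted p of a histone gene being 0.0718. The change of the genotype difference from 12 h to 24 h, which this fit takes as error, was 1.5-fold or more for 10 of 30 histone genes, against 10.4% of all genes, and its SD was 0.525 over the histone genes and 0.367 over all.

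Genes that make and handle histone transcripts stood mostly on the other side of 0 from the histone genes at 24 h. Over 16 measured genes for the production and processing of histone mRNA, the median at 24 h was 0.10. Of these, 13 read higher in knockout (50.9% of all genes). At 12 h, 12 of the 16 read lower (50.2% of all genes), with a median of -0.06, the same side as the histone genes. Past 1.5-fold in either direction between the genotypes stood 0 of 16 at either time, against 2.83% of all genes at 12 h and 5.4% at 24 h. Slbp, which binds the stem-loop, read 7.33 and 7.20 at 12 h and 7.35 and 7.46 at 24 h. Npat, the coactivator of histone genes, read 6.89 and 6.99, then 7.04 and 7.15. For both, knockout at 24 h was the highest array. Casp8ap2 read 5.83 and 5.61, then 5.99 and 6.26. It was the single gene of the list past 1.5-fold between the times, higher by 0.65 at 24 h in knockout (2.61% of all genes).

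The chaperones that carry new histones to DNA had medians of -0.03 at both times over 20 genes. Chaf1a, the large subunit of chromatin assembly factor 1, read 5.03 and 3.91 at 12 h (wild type, then knockout) and 4.64 and 4.60 at 24 h. Knockout at 12 h was the single low array of the 4, lower by 1.13 than wild type. Chaf1a was the single chaperone past 1.5-fold between the genotypes, where 1.41% of all genes were lower by as much at 12 h. Chaf1b, its partner subunit, lay at 5.88 to 5.99 on all arrays. Nasp, an H3 and H4 chaperone, read 5.67 and 5.71, then 5.81 and 5.97, and Asf1b read 6.72 and 6.53, then 6.53 and 6.48. Between the times, Chaf1a and Tonsl, which binds new histones at forks, were higher by 0.69 and 0.84 at 24 h in knockout. There 2.61% of all genes were higher by 1.5-fold or more.

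Histone variants that are also made outside S phase had no common direction. Of 12 measured, 7 read lower in knockout at 24 h (49% of all genes), with a median of -0.09. Between the genotypes 0 were past 1.5-fold, against 2.83% of all genes at 12 h and 5.4% at 24 h. H2ax, the variant phosphorylated at DNA breaks, read 8.27 and 8.24 at 12 h and 7.98 and 7.55 at 24 h. H2ax and H1f10 were lower by 1.5-fold or more at 24 h in knockout, by 0.69 and 0.84, against 2.48% of all genes. H2aj was lower by 0.64 at 24 h in wild type, where 3.09% of all genes were lower by 1.5-fold or more. H2az1, the gene of H2A.Z, lay between 4.45 and 4.74 on the 4 arrays.

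Genes of S phase had medians close to 0 between the genotypes, while genes of mitosis read lower at 24 h than at 12 h. Over 30 S phase and replication genes the median was -0.08 at 12 h, with 22 of 30 lower in knockout (50.2% of all genes). At 24 h it was -0.02, with 17 of 30 lower (49%). Past 1.5-fold in either direction between the genotypes stood 0 of 30, against 2.83% of all genes at 12 h and 5.4% at 24 h. Pcna, the sliding clamp of the polymerases, read 10.45 and 10.38 at 12 h and 9.95 and 10.34 at 24 h. Rrm2, the regulated subunit of ribonucleotide reductase, read 5.12 and 5.36, then 5.59 and 5.14, so that knockout was the lower at 24 h by 0.45. Between the times, S phase genes had medians of 0.16 in wild type and 0.09 in knockout. In knockout Gins2 was higher by 0.94 and Ccna2 lower by 0.64, where 2.61% and 2.48% of all genes passed 1.5-fold.

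All 17 measured mitosis genes read lower at 24 h than at 12 h in both genotypes, with medians of -0.56 in wild type and -0.90 in knockout, and 8 and 11 of them were lower by 1.5-fold or more, against 3.09% and 2.48% of all genes. At 24 h 14 of the 17 read lower in knockout (49% of all genes), with a median of -0.30. Plk1 and Kif20a were lower by 0.68 and 0.65, past 1.5-fold, against 2.81% of all genes. The 30 histone genes shared the direction of the mitosis genes between the genotypes at 24 h, with medians of -0.20 and -0.30. Between the times they did not, with histone medians of 0.20 in wild type and 0.17 in knockout. The 35 shared histone probe sets had time medians of -0.02 and 0.02. The 8 shared sets with a mean level of at least 7 had time medians of 0.04 in wild type and -0.17 in knockout. Of these 8, 4 read lower at 24 h in wild type and 6 in knockout. Macrophage markers also leaned lower in knockout at 24 h, with 7 of 8 lower (49% of all genes), a median of -0.27 and Itgam at -0.72. Their median at 12 h was 0.01. What part the share of dividing cells or of macrophage RNA has in the histone values was not tested.

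**Figure D5:**
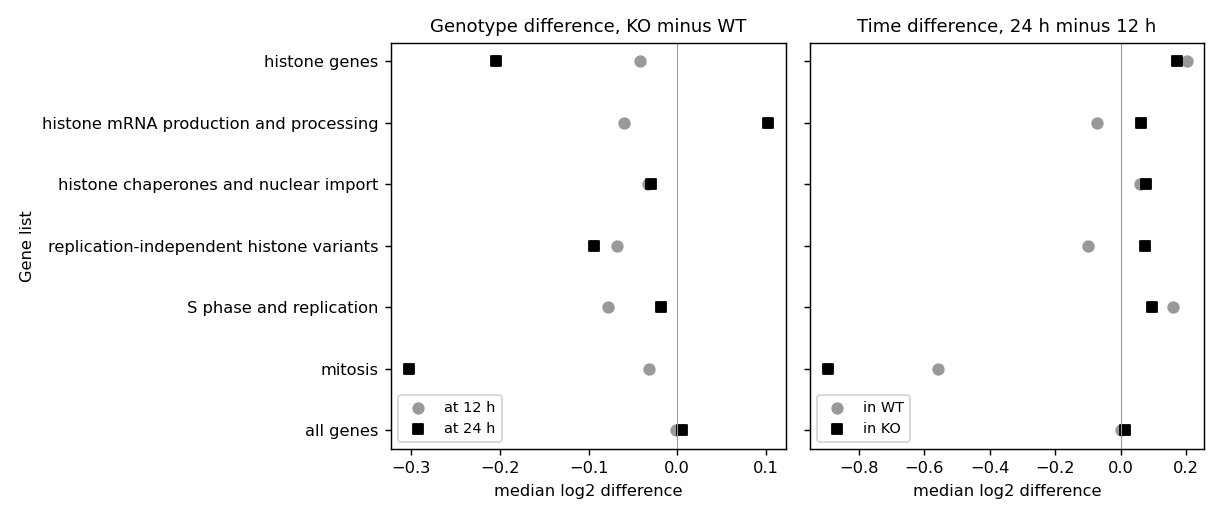
Median log2 difference (x axis) of the histone genes, of 5 lists of related genes and of all genes (y axis), between the genotypes on the left (grey circles at 12 h, black squares at 24 h) and between the times on the right (grey circles in wild type, black squares in knockout). At 24 h the histone genes, at -0.20, and the mitosis genes, at -0.30, lie left of 0, and between the times they lie on opposite sides of 0.

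Differences of genes with and without a promoter word overlapped for each of the 3 words, and no test was made. The 5 genes with the octamer had a median genotype difference of -0.37 at 12 h and -0.36 at 24 h, with 3 and 4 of 5 below 0. The 21 without it had medians of -0.02 and -0.17, with 12 and 15 of 21 below 0. At 24 h their ranges were -1.08 to 0.22 with the octamer and -0.98 to 0.46 without it. Genes with CCAAT had a median of -0.30 at 24 h and those without it, all of class H4, of -0.12. Genes with TATAAA had a median of -0.27 and those without it of -0.24.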

How the data were processed

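Transcript levels of bone marrow-derived macrophages were measured on 4 Affymetrix whole-transcript arrays, 1 per group, each hybridised with RNA pooled from 3 samples per the labels. The authors deposited log2 values per probe set, made with RMA. The tool is named in the submitters' processing notes, without a version. RMA corrects background, forces the arrays to 1 distribution by quantile normalization and combines the probes of each set, which hides any shift common to all transcripts. The log2 scale was inferred from the range of the values, and the sources used here do not name the authors' annotation. There were 0 columns without a matching sample.

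Of 41345 probe sets, 23521 listed a single symbol, 1814 several and 16010 none. Where a gene had several probe sets, that with the highest mean was taken. No level filter was used, since it would remove 10 of the 30 histone genes. All 30 matched RefSeq (GRCm38.p6) by gene ID, which gave the older symbols and promoters. Promoter words were searched as exact letters on both strands.

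Differences between 2 arrays have no error, so genes past 1.5-fold were counted beside the share of all 22180 genes. The number of arrays limits the precision. Genotype and time effects over all 4 arrays were fitted with limma 3.58.1 in R 4.3.3, adjusted over all genes by Benjamini-Hochberg. The fit was tested on simulated data in which the genotype difference was present at both times. There its genotype term recovered 56% of genes set at 2-fold and 100% of those set at 4-fold. It can thus miss differences of 2-fold. These shares do not apply to a difference present at 1 time only, part of which enters the residual of the fit. The histone genes, the gene lists, the markers and the rule for named genes (the 5 highest and 5 lowest histone genes of each difference, those with several probe sets, and core or past-threshold genes of the lists) were chosen with earlier results of these data known. Alternatives were level filters at the 40th and 60th percentile, median centring, quantile normalization, a loess with a span of 0.3, fold rules of 1.3 and 2, the mean over probe sets, probe sets as units, an eBayes trend and leaving out the 3 testis genes. B cell, T cell, dendritic, erythroid and mast cell markers were also summed; none of the 4 mast cell markers, 2 of 4 B cell, 2 of 5 T cell and 2 of 4 dendritic cell markers passed the 40th percentile, and the 1 measured erythroid marker did not.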

Additional observations from a re-analysis of the deposited data

Results flagged for a closer look

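For 3 histone genes the difference between the genotypes pointed opposite ways at the 2 times, with at least 1 of the values past 1.5-fold. H2bc18 was higher in knockout by 0.38 at 12 h and had a difference of -0.71 at 24 h. H4c12 was higher in knockout by 0.22 at 12 h and had a difference of -0.69 at 24 h. H2bc3 had a difference of -0.68 at 12 h and of 0.22 at 24 h. The difference between the times also pointed opposite ways in the genotypes for all 3, which is the same contrast of 4 arrays read the other way. H2bc18 had a time difference of 0.83 in wild type and -0.27 in knockout, and H4c12 of 0.20 and -0.70. H2bc3 had -0.58 and 0.32, neither past 1.5-fold. Each value rests on 1 array per group, and none of these contrasts was tested.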

How the results depend on the processing

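No paired analysis was possible because the labels give no replicate numbers and each group has 1 array. Leaving out a replicate was not possible either: without any 1 of the 4 arrays the limma fit has no residual degree of freedom. Over the alternatives for the medians and counts of all histone genes and for the limma counts, 73 values stayed close to those reported, 13 moved and 0 turned direction. Values of classes and single genes near 0 did turn: the H2A median at 12 h (-0.0078) was 0.0021 under quantile normalization and 0.0030 under loess, and the H2B time median in knockout (0.0074) was -0.0057 under median centring. At a fold rule of 1.3, the histone genes past it numbered 8 at 12 h and 8 at 24 h between the genotypes, and 11 in wild type and 8 in knockout between the times, against 10.8%, 16.3%, 17.7% and 15.4% of all genes. At a fold rule of 2 these counts were 0, 1, 2 and 0, against 0.216%, 0.546%, 1.32% and 0.744%. With only genes above the 60th percentile of level, 13 histone genes remained. Their median genotype difference at 24 h was -0.094, against 0.02 over all genes at that level. Past 1.5-fold between the times stood 3 in wild type and 2 in knockout, against 7.68% and 4.78% of those genes. At that level limma called 114 genes for time, 0 of the 13 histone genes among them. With the eBayes trend limma called 235 genes for time, 0 of the 30 histone genes among them. Leaving out the 3 testis genes was chosen after seeing the data and moved no median by over 0.1. Some calls sit at the threshold: H2ac12 passes 1.5-fold at 24 h under quantile normalization (-0.61) and loess (-0.62), and H2ac10 and H2bc3 pass it between the times under median centring (-0.59 in knockout and -0.62 in wild type). No scaling moved the median of all genes by over 0.1. Signal near background limits the 15 dim histone genes, and the absence of replicate arrays limits all of them.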
